A study of Mus musculus with 12 samples.

Results

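The genes described here are 32 genes of cholesterol synthesis, of its control by the SREBP transcription factors, and of fatty acid synthesis. They were chosen by name from what their products are known to do, with earlier results of these data known. Only genes present among the 12850 of the deposited table were taken, so the list need not cover the pathways in full. By role they are 8 enzymes from acetyl-CoA through mevalonate to squalene (*Acat2*, *Hmgcs1*, *Mvk*, *Pmvk*, *Mvd*, *Idi1*, *Fdps*, *Fdft1*), 10 enzymes from squalene to cholesterol (*Sqle*, *Lss*, *Cyp51*, *Tm7sf2*, *Msmo1*, *Nsdhl*, *Hsd17b7*, *Ebp*, *Sc5d*, *Dhcr7*), 5 genes that control the pathway (*Srebf1*, *Srebf2*, *Scap*, *Insig1*, *Insig2*), 3 that handle sterols (*Stard4*, *Ch25h*, *Soat1*) and 6 of fatty acid synthesis (*Acly*, *Acaca*, *Fasn*, *Elovl6*, *Scd1*, *Scd2*). The RNA came from thioglycollate-elicited peritoneal exudate cells (PECs), a macrophage-rich population collected from C57BL/6 mice 3.5 days after thioglycollate was injected into the peritoneum. The cells were wild-type (WT) or carried Zc3h12a S513A, a knock-in that changes a serine of Regnase-1, an RNase that degrades inflammatory mRNAs, to alanine. This is a change of codon, which the gene's mRNA level does not check. Cultures received LPS, the bacterial ligand of TLR4, at 100 ng/ml for 0, 4 or 8 hr, which gave 6 groups (WT and S513A at each time) of 2 libraries each, 12 in all. The knock-in was made with CRISPR/Cas9 in C57BL/6J eggs, so it was carried by every cell of those mice, and sex and age are not given in the sources used here. The sources do not say whether the 2 libraries of a group came from separate mice, so p-values measure only the spread between these libraries, which may be technical.

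SREBP2, the product of *Srebf2*, drives the genes of cholesterol synthesis, and SREBP1, the product of *Srebf1*, mainly those of fatty acid synthesis. Both are made as membrane precursors that SCAP escorts from the endoplasmic reticulum to the Golgi when sterols are low, and INSIG proteins hold SCAP back when sterols are high. The activity of the pathway is therefore set largely by cleavage of proteins, which mRNA levels do not measure. In macrophages, intermediates of the pathway and oxysterols such as the product of CH25H are known to feed into inflammatory and antiviral responses.

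The libraries held 9525979 to 12439960 reads assigned to genes (median 11137241). Values are log2 CPM, the base-2 logarithm of a gene's reads relative to the scaled total of its library, and 3 reads stood at a log2 CPM of -2.04 to -1.30 depending on the library. A filter that asked for 1 CPM in 2 or more libraries left 11885 of the 12850 genes, which were tested with limma, and a gene was called at an adjusted p under 0.05 (Benjamini-Hochberg, over all 11885). Macrophage markers were abundant: the 8 listed (among them *Adgre1*, *Csf1r* and *Lyz2*) summed to 16754 to 27848 CPM. Of that sum *Lyz2* alone held 9006 to 20943 CPM. Other lists were only partly present in the data. Their sums were 4.24 to 9.68 CPM for B cell markers (5 of 6 listed) and 1.33 to 3.02 for T cell markers (2 of 6). They were 0.81 to 4.56 for mesothelial markers (5 of 6) and 1.76 to 3.84 for mast cell markers (4 of 6). Neutrophil markers (3 of 8 listed, chiefly *Mmp8*) summed to 660 to 745 CPM at 0 hr, 445 to 689 at 4 hr and 362 to 575 at 8 hr. *S100a8*, part of that sum, ranged from 20.2 to 106 CPM, with its lowest value in a 0 hr library and its highest in one with LPS. The sum therefore joins markers that moved differently. For eosinophil markers (3 of 6 listed) the sum went from 16.0 to 18.8 CPM at 0 hr to 8.31 to 10.4 at 4 hr and 3.84 to 4.91 at 8 hr. That sum was chiefly *Siglecf* (2.98 to 18.3 CPM), as *Ccr3* and *Ear2* reached at most 0.78 and 0.66 CPM. Read counts of *Camp*, from the neutrophil list, and of *Ccr3* and *Ear2* reached 0 in at least 1 library. The 8 cycling-cell markers summed to 22.3 to 27.8 CPM at 0 hr, 64.4 to 89.5 at 4 hr and 50.6 to 73.2 at 8 hr. The rise of that sum was chiefly that of *Mki67* (13.0 to 82.1 CPM). *Top2a*, the next highest, stayed within 1.57 to 4.27 CPM, so the sum does not show a rise of the list as a whole. These sums moved with LPS and their part in the LPS results was not tested. In bulk RNA, fewer cells of a type and less RNA per cell cannot be told apart. Over the better-expressed genes (mean log2 CPM of 3 or more), 1 component held 67.6% of the variance between replicates, and WT 4 hr replicate 2 and S513A 8 hr replicate 1 (both 0.72) stood at one end of it and S513A 4 hr replicate 2 (-0.57) at the other.

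In resting cells the sterol genes spanned a wide range. Levels per kb use the union of all annotated exons of a gene, which can be longer than the transcript expressed. Per kb of exon, *Soat1*, which esterifies cholesterol for storage, stood highest at 60.8 ± 2.76 CPM per kb (SD over the 4 libraries at 0 hr), next to *Insig1* at 60.1 ± 5.47 and *Hmgcs1*, which makes HMG-CoA, at 56.5 ± 5.23. These 3 did not differ beyond their spread, and *Acly* (52.0 ± 5.31), the source of cytosolic acetyl-CoA, overlapped all 3. *Srebf2* stood at 33.3 ± 3.40 CPM per kb and *Srebf1* at 12.4 ± 1.97, with no overlap between them. *Scap* (5.0 ± 0.636) was the lowest of the 5 control genes per kb. Without the division by length it stood above *Insig2*, with group means at 0 hr of 40.5 CPM in WT and 33.9 in S513A against 22.9 and 25.2. *Scd1* (1.78 ± 0.725) and *Elovl6* (1.44 ± 0.218) were the lowest of the fatty acid genes, and *Scd2*, a stearoyl-CoA desaturase like *Scd1*, stood far above it at 44.3 ± 11.3. The desaturases are paralogs, and reads that fit both could have been split between them. *Ch25h* had 0 reads in both WT libraries at 0 hr and 0 and 2 reads in the S513A libraries. It passed the filter on low values only through its LPS libraries, whereas the other 31 members had at least 1 CPM in all 12 libraries. The LPS counts against 0 hr averaged over the genotypes, the interaction counts and the genotype count at 0 hr are therefore also given without it. The other counts include it.

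After 4 hr of LPS, sterol synthesis mRNAs rose together by modest amounts, with 2 members falling more steeply. Of the 32 members, 19 rose and 2 fell between 0 and 4 hr, averaged over the genotypes (18 and 2 of 31 without *Ch25h*). Of all genes tested, 29.1% were called up and 26.7% down in the same comparison. By role, 7 of 8 mevalonate enzymes, 7 of 10 later enzymes, 3 of 5 control genes and 2 of 3 handling genes rose, and no fatty acid gene was called. The median log2 fold change was 0.61 over the 18 enzymes of sterol synthesis, 0.45 over the 31 members other than *Ch25h* and 0.02 over all genes tested. The summed level of the 18 enzymes was 1664 to 1810 CPM in the 4 libraries at 0 hr. It was 2343 to 2767 CPM in those at 4 hr and 2287 to 2779 CPM at 8 hr, so the stimulated libraries did not overlap the resting ones. At 8 hr the sums were 2779 and 2748 CPM in WT and 2338 and 2287 CPM in S513A. Quantile normalization, which moved the median of all genes to -0.06, gave 15 members up and 4 down, the further falls being those of *Ebp* and *Scd2*.

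*Hsd17b7*, which encodes a sterol ketoreductase of the demethylation steps (chromosome 1, 169949535 to 169969241, minus strand, GRCm38), rose most among the enzymes. Its log2 CPM was 5.40 and 5.34 in WT and 5.08 and 5.03 in S513A at 0 hr, against 6.43 and 6.66 in WT and 6.49 and 6.19 in S513A at 4 hr. All 4 stimulated libraries lay above all 4 resting ones, and the rise was 2.34-fold (log2 1.23 ± 0.09 SE, adjusted p = 8.68e-07). *Idi1*, which isomerises isopentenyl diphosphate (chromosome 13, 8885501 to 8892451, plus strand), stood at 5.57 and 5.29 in WT and 5.29 and 5.49 in S513A at 0 hr, and at 6.46 and 6.08 in WT and 6.38 and 6.36 in S513A at 4 hr. Its groups did not overlap either, with a rise of 1.88-fold (log2 0.91 ± 0.10 SE, adjusted p = 2.16e-05). *Acat2*, which condenses acetyl-CoA, rose 1.86-fold, *Fdft1*, the squalene synthase, 1.78-fold and *Cyp51*, the lanosterol demethylase, 1.73-fold. *Fdft1* shares 774 exonic bases with *Ctsb* on the other strand and *Fdps* 1124 bases with *Gm43738*, which makes both uncertain. *Hmgcs1* (557 bases), *Lss* (381), *Idi1* (323), *Cyp51* (166) and *Ch25h* (159) also share exonic bases with a gene on the other strand. *Tm7sf2* shares 532 bases with *Vps51* on the same strand. The same limit holds for these genes, in the shared part. The reads were aligned as unstranded, so reads in the shared bases cannot be told apart by strand. The smallest called rise was that of *Sqle*, the squalene epoxidase, at 1.25-fold, and *Mvk*, *Tm7sf2* and *Ebp* were not called (log2 0.06, -0.28 and -0.13).

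*Dhcr7*, the reductase that makes cholesterol in the last step of its route (chromosome 7, 143823145 to 143848410, plus strand), went the other way. Its log2 CPM was 6.22 and 5.92 in WT and 5.87 and 5.81 in S513A at 0 hr, and 4.18 and 4.33 in WT and 3.92 and 3.83 in S513A at 4 hr. The libraries were far apart, 3.70-fold lower with LPS (log2 fold change -1.89 ± 0.12 SE, adjusted p = 3.04e-07). *Soat1* (chromosome 1, 156424525 to 156474331, minus strand) stood at 9.28 and 9.19 in WT and 9.26 and 9.13 in S513A at 0 hr, and at 7.56 and 7.72 in WT and 7.56 and 7.34 in S513A at 4 hr. From a resting level per kb among the highest of the 32 members it fell 3.19-fold (log2 fold change -1.67 ± 0.08 SE, adjusted p = 3.87e-08), again with no overlap. Both falls were called in each genotype alone.

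*Ch25h* encodes the hydroxylase that makes an antiviral oxysterol from cholesterol (chromosome 19, 34473778 to 34475164, minus strand). From 0 reads in both WT libraries at 0 hr it reached a sum of 243 reads in the WT pair after 4 hr and 229 after 8 hr, which was at least 49.8-fold and at least 49.7-fold higher than a floor of 3 reads per library. In S513A the sum went from 2 reads to 146 at 4 hr and 132 at 8 hr, ratios of 90.7 (95% exact binomial interval 24.7 to 756) and 73.9 (20.05 to 616) that cover counting error only. Its log2 CPM with LPS was 3.45 and 3.46 in WT and 2.55 and 3.35 in S513A at 4 hr, and 3.24 and 3.64 in WT and 2.41 and 2.95 in S513A at 8 hr. The S513A libraries were the lower at both times, but the difference was not called (log2 -0.51 ± 0.60 SE at 4 hr, -0.76 ± 0.60 at 8 hr).

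**Figure D1:**
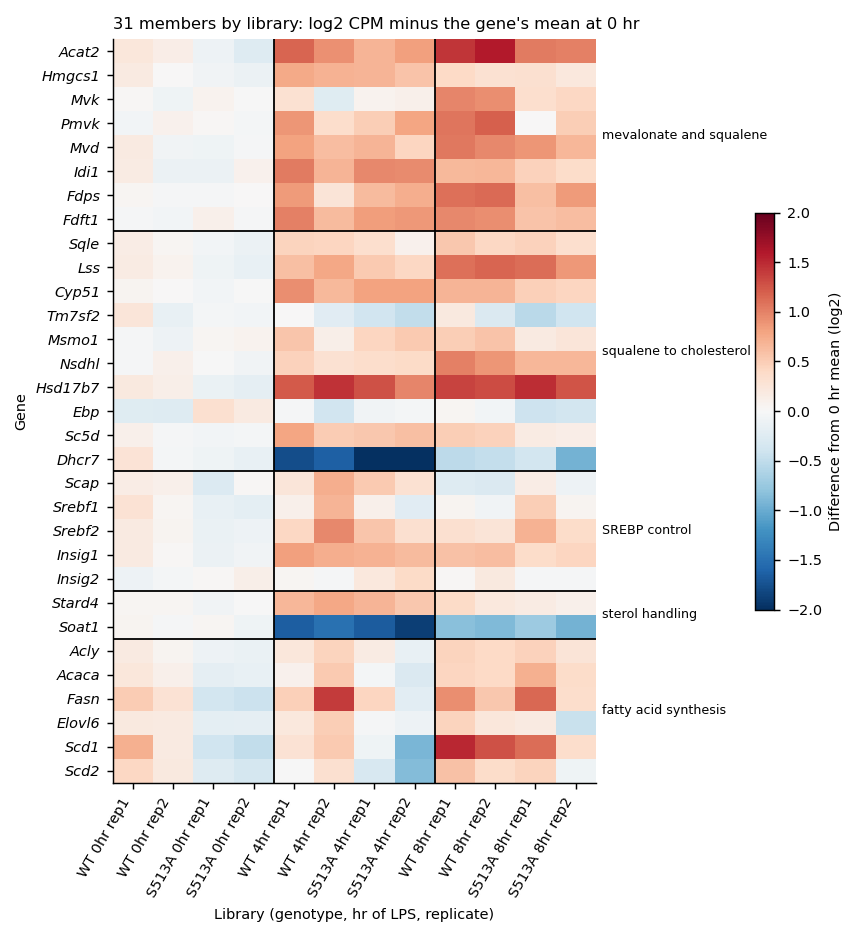
Heat map of log2 CPM minus the gene's mean over the 4 libraries at 0 hr, for the 31 members other than *Ch25h* (rows, by role) in each of the 12 libraries (columns, by hr of LPS, genotype and replicate). Most enzyme rows are red at 4 and 8 hr, *Dhcr7* and *Soat1* are blue, and the fatty acid rows differ between replicates.

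Of the 5 control genes, *Srebf2*, *Scap* and *Insig1* rose at 4 hr, and *Srebf1* and *Insig2* were not called at either time. *Srebf2* had a log2 CPM of 8.08 and 7.95 in WT and 7.76 and 7.80 in S513A at 0 hr, 8.31 and 8.85 in WT and 8.44 and 8.21 in S513A at 4 hr, and 8.21 and 8.16 in WT and 8.58 and 8.26 in S513A at 8 hr. Every stimulated library lay above every resting one, and the rise was 1.47-fold at 4 hr (log2 0.56 ± 0.12 SE, adjusted p = 0.00258) and 1.33-fold at 8 hr (log2 0.41 ± 0.12 SE, adjusted p = 0.0182). Without any 1 of 4 libraries the call at 8 hr was lost (WT 0 hr replicate 2, WT 8 hr replicate 1, S513A 0 hr replicate 1 or S513A 8 hr replicate 1, adjusted p = 0.0562 to 0.0641), and quantile normalization ended it at both times (log2 0.16 and 0.13). *Srebf1* stood at 6.41 and 6.16 in WT and 5.97 and 5.93 in S513A at 0 hr, 6.22 and 6.79 in WT and 6.22 and 5.89 in S513A at 4 hr, and 6.18 and 6.04 in WT and 6.62 and 6.17 in S513A at 8 hr. These overlapped throughout and no change was called (log2 0.16 ± 0.14 SE at 4 hr, 0.13 ± 0.14 at 8 hr).

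*Scap* was high at 4 hr only. Its log2 CPM was 5.36 and 5.32 in WT and 4.93 and 5.22 in S513A at 0 hr, 5.46 and 5.94 in WT and 5.73 and 5.51 in S513A at 4 hr, and 4.95 and 4.92 in WT and 5.36 and 5.10 in S513A at 8 hr. The 4 libraries at 4 hr lay above all the others, with a rise of 1.37-fold from 0 hr (adjusted p = 0.00829) and a fall of 0.57 on the log2 scale to 8 hr (SE 0.12, adjusted p = 0.00576). *Scap* shares 985 exonic bases with the gene model *5830462I19Rik* on the other strand. *Insig1*, a target of SREBP2 as well as its brake, stood at 7.71 and 7.55 in WT and 7.42 and 7.46 in S513A at 0 hr, 8.36 and 8.26 in WT and 8.22 and 8.16 in S513A at 4 hr, and 8.12 and 8.15 in WT and 7.91 and 7.96 in S513A at 8 hr. The 3 times did not overlap, and it rose 1.64-fold at 4 hr (log2 0.72 ± 0.07 SE, adjusted p = 6.35e-06) and stayed 1.41-fold up at 8 hr (adjusted p = 0.000138). *Insig2* had a log2 CPM of 4.48 and 4.55 in WT and 4.62 and 4.70 in S513A at 0 hr, 4.62 and 4.56 in WT and 4.79 and 4.97 in S513A at 4 hr, and 4.61 and 4.78 in WT and 4.56 and 4.57 in S513A at 8 hr. It overlapped between the times and was not called (log2 0.15 ± 0.08 SE at 4 hr, 0.04 ± 0.08 at 8 hr). *Stard4*, which carries cholesterol between membranes and is a target of SREBP2, rose 1.58-fold at 4 hr (adjusted p = 2.49e-05) and 1.16-fold at 8 hr (adjusted p = 0.0397), the second of which was lost without any 1 of 7 libraries.

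**Figure D2:**
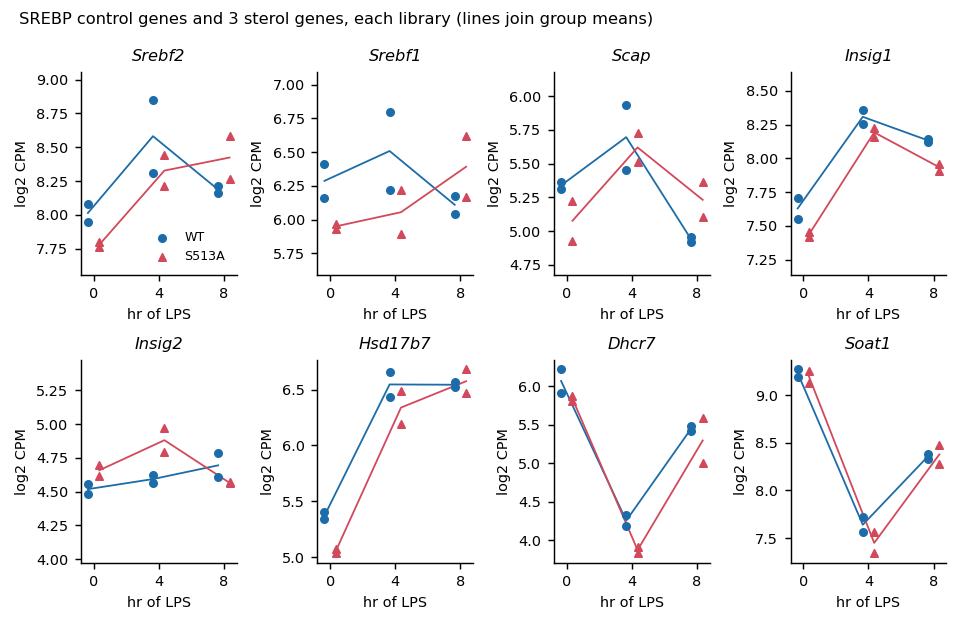
Log2 CPM of 5 control genes, *Hsd17b7*, *Dhcr7* and *Soat1* in every library against hr of LPS (points, WT circles and S513A triangles, 2 libraries each, lines join the means). *Srebf2* and *Insig1* stand above 0 hr at both times, *Scap* at 4 hr, and *Dhcr7* and *Soat1* are lowest at 4 hr.

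The promoters of 26 of the 32 members were matched by symbol in RefSeq (GRCm38.p6), each window running from 250 bases before to 50 after a gene's start, and *Scd1*, *Scd2*, *Stard4*, *Fdps*, *Fdft1* and *Sqle* were not matched. The windows were searched on both strands for 4 motifs, none of which contains another: TCACNCCAC (the core of a sterol regulatory element), CCAAT (the NF-Y box), GGGCGG (a GC box) and CACGTG (an E-box). A gene was counted when any of its windows held the motif, and 9189 tested genes had a window. CCAAT was found in 21 of 26 members (80.77%) and in 42.88% of those tested genes. In the window nearest their GENCODE start 10 members held 2 or more, which was not counted over the tested genes. The GC box was found in 21 members against 68.67% of tested genes, the E-box in 5 members against 12.08%, and TCACNCCAC in 1 member, *Hmgcs1*, against 1.39%. These matches are descriptions of the letters in the windows, not of binding. As examples, the 250 bases before the start are given for 4 members that rose at 4 hr (*Hmgcs1*, *Hsd17b7*, *Lss*, *Insig1*) and 2 that fell (*Dhcr7*, *Soat1*). They are in GRCm38.p6, 5′ to 3′ on the gene's strand, with TCACNCCAC and CCAAT, or its complement ATTGG, in capitals.
Hmgcs1, chr13:119690101-119690350, plus strand: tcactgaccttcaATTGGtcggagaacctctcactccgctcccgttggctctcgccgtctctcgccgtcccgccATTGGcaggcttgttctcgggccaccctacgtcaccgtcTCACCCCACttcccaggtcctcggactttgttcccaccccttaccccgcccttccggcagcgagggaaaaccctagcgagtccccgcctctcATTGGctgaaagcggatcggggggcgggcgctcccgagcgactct
Hsd17b7, chr1:169969206-169969455, minus strand: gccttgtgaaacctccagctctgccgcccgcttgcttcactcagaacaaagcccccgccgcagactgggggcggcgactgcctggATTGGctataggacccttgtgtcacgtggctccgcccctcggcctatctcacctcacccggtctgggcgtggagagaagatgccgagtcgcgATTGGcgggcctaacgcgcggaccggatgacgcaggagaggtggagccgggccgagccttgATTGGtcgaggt
Lss, chr10:76531355-76531604, plus strand: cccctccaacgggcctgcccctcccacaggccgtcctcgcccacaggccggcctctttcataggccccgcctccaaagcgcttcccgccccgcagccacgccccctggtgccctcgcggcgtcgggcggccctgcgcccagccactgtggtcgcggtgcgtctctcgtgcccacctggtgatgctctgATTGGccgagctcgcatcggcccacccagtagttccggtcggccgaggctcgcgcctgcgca
Insig1, chr5:28071162-28071411, plus strand: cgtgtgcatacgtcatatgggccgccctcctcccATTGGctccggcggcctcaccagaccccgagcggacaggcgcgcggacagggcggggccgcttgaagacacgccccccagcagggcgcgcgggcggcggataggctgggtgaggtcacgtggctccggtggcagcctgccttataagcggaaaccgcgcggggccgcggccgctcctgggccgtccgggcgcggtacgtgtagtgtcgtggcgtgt
Dhcr7, chr7:143822917-143823166, plus strand: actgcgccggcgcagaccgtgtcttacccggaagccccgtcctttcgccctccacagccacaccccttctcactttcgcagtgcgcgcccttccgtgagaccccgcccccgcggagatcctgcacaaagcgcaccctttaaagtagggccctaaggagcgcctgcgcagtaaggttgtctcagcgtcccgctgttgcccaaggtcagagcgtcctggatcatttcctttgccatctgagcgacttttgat
Soat1, chr1:156474329-156474578, minus strand: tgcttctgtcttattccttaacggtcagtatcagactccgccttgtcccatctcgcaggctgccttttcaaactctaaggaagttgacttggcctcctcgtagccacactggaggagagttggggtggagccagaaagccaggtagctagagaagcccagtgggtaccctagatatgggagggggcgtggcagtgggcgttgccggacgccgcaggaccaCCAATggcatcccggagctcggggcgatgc
*Hmgcs1* holds the sterol element core at -137 and inverted CCAAT boxes at -237, -176 and -45 from the start. *Hsd17b7* holds inverted CCAAT boxes at -165, -73 and -12, *Lss* at -62 and *Insig1* at -216. *Soat1*, which fell, holds CCAAT at -30, and the *Dhcr7* window nearest its GENCODE start holds neither motif, while another of its windows holds CCAAT.

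By 8 hr more members were up, among them 4 fatty acid genes. Against 0 hr, 23 of 32 members rose and 2 fell (22 and 2 of 31 without *Ch25h*), while 24.5% of all genes tested were called up and 21.6% down. All 8 mevalonate enzymes, 7 of 10 later enzymes, 2 of 5 control genes, 2 of 3 handling genes and 4 of 6 fatty acid genes rose. The median log2 fold change was 0.61 over the 18 sterol enzymes, 0.43 over the 6 fatty acid genes and 0.43 over the 31 members other than *Ch25h*. Over all genes tested it was -0.00070. By genotype, the median over the 18 sterol enzymes was 0.78 in WT and 0.45 in S513A, against 0.03 and -0.01 over all genes tested. Under quantile normalization 15 members rose and 3 fell, with *Hmgcs1*, *Sqle*, *Msmo1*, *Sc5d*, *Srebf2*, *Stard4*, *Acly* and *Fasn* no longer called.

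*Hsd17b7* led again among the enzymes at 2.54-fold (log2 1.35 ± 0.09 SE, adjusted p = 5.36e-07), with 6.57 and 6.52 in WT and 6.68 and 6.47 in S513A at 8 hr. *Acat2* (chromosome 17, 12942890 to 12960747, minus strand) went from 4.71 and 4.61 in WT and 4.38 and 4.22 in S513A at 0 hr to 5.90 and 6.06 in WT and 5.52 and 5.49 in S513A at 8 hr. Its groups did not overlap and the rise was 2.40-fold (log2 1.27 ± 0.09 SE, adjusted p = 6.67e-07). *Lss*, the cyclase that closes the sterol rings (chromosome 10, 76531588 to 76557138, plus strand), went from 6.07 and 5.97 in WT and 5.83 and 5.75 in S513A to 7.00 and 7.06 in WT and 7.02 and 6.77 in S513A, a rise of 2.08-fold (log2 1.06 ± 0.08 SE, adjusted p = 1.36e-06). *Fdps*, the farnesyl diphosphate synthase (chromosome 3, 89093588 to 89101959, minus strand), rose 1.89-fold, from 7.43 and 7.37 in WT and 7.376 and 7.404 in S513A to 8.50 and 8.52 in WT and 7.99 and 8.24 in S513A (adjusted p = 7.78e-05). In each of these 4 genes every library at 8 hr stood above every library at 0 hr. *Dhcr7* (log2 fold change -0.58 ± 0.12 SE, adjusted p = 0.00292) and *Soat1* (-0.85 ± 0.08 SE, adjusted p = 1.17e-05) were still below their resting level.

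Among the fatty acid genes, *Scd1* rose 2.09-fold at 8 hr (log2 1.06 ± 0.22 SE, adjusted p = 0.00218), *Fasn*, the fatty acid synthase, 1.67-fold (adjusted p = 0.0227), *Acaca*, the acetyl-CoA carboxylase that feeds it, 1.39-fold (adjusted p = 0.00590) and *Acly* 1.31-fold (adjusted p = 0.00506). *Elovl6*, an elongase, and *Scd2* were not called (log2 0.10 ± 0.14 and 0.33 ± 0.15 SE). Libraries of *Scd1* and *Fasn* overlapped between 0 and 8 hr when the genotypes were pooled. The call of *Fasn* was lost without any 1 of 5 libraries: WT 0 hr replicate 2, WT 8 hr replicate 1 or S513A 8 hr replicate 1, or either S513A 0 hr library (adjusted p = 0.0555 to 0.0860).

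**Figure D3:**
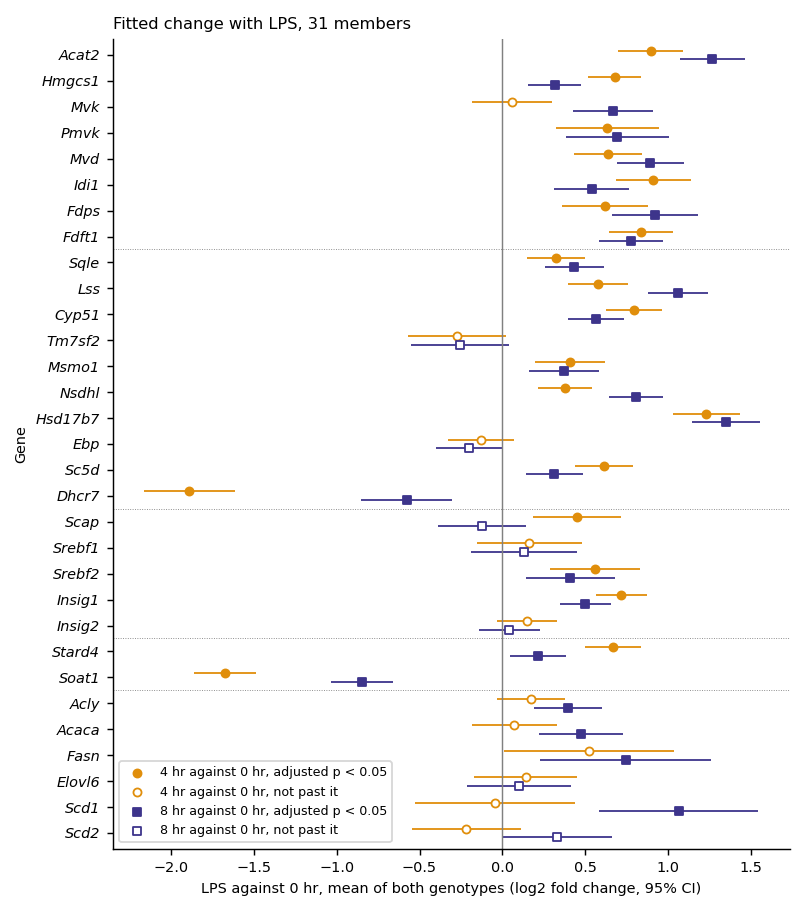
Fitted log2 fold change with its 95% confidence interval for the 31 members other than *Ch25h*, at 4 hr (orange circles) and 8 hr (purple squares) of LPS against 0 hr, as the mean of both genotypes (filled where the adjusted p is under 0.05). The sterol enzymes lie mostly to the right of 0 at both times, *Dhcr7* and *Soat1* to the left, and *Mvk*, *Scd1*, *Acaca* and *Acly* are called at 8 hr only, as is *Fasn*.

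Between 4 and 8 hr the members parted. In that comparison 9 of 32 rose and 7 fell, where 12.8% of all genes tested were called in each direction. Of the 19 members up at 4 hr, 7 fell back by 8 hr: *Hmgcs1*, *Idi1*, *Cyp51*, *Sc5d*, *Insig1*, *Stard4* and *Scap*. All but *Scap* were still called above 0 hr. By contrast *Acat2*, *Lss* and *Nsdhl* rose further, and *Mvk*, *Acaca*, *Scd1* and *Scd2* were called up in this interval and not in the first. *Dhcr7* and *Soat1* came back part of the way.

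The changes of *Dhcr7* and *Soat1* were the largest of those whose libraries did not overlap. *Scd1* rose 2.15-fold (adjusted p = 0.00393), but its libraries at 4 and 8 hr overlapped. *Dhcr7* went from 4.18 and 4.33 to 5.42 and 5.48 in WT and from 3.92 and 3.83 to 5.58 and 5.01 in S513A, a rise of 2.48-fold (log2 1.31 ± 0.12 SE, adjusted p = 4.81e-05). *Soat1* rose 1.77-fold, to 8.39 and 8.33 in WT and 8.48 and 8.28 in S513A at 8 hr (log2 0.82 ± 0.08 SE, adjusted p = 7.90e-05). *Mvk*, the mevalonate kinase (chromosome 5, 114444269 to 114460591, plus strand), went from 5.48 and 4.93 in WT and 5.25 and 5.28 in S513A at 4 hr to 6.16 and 6.10 in WT and 5.52 and 5.59 in S513A at 8 hr. That was a rise of 1.52-fold with no overlap (log2 0.61 ± 0.11 SE, adjusted p = 0.00235), and the S513A libraries moved the less. *Lss* rose 1.40-fold from its 4 hr values of 6.51 and 6.68 in WT and 6.43 and 6.32 in S513A (adjusted p = 0.00165). Among the falls, *Stard4* dropped by 0.45 on the log2 scale (adjusted p = 0.00162) and *Hmgcs1* by 0.36 (adjusted p = 0.00458). The calls of *Cyp51* (adjusted p = 0.0480) and *Insig1* (adjusted p = 0.0410) were each lost without any 1 of the 11 libraries other than WT 4 hr replicate 2. The call of *Acaca* was lost on leaving out replicate 1 of WT at 4 hr, replicate 1 or 2 of WT at 8 hr, replicate 2 of S513A at 4 hr or replicate 1 of S513A at 8 hr. That of *Scd2* was lost without any 1 of these other than replicate 2 of WT at 8 hr. That of *Idi1* was lost on leaving out replicate 1 or 2 of WT at 8 hr, replicate 1 or 2 of S513A at 4 hr, or replicate 2 of S513A at 8 hr. That of *Sc5d* was lost on leaving out replicate 1 or 2 of WT at 8 hr or replicate 2 of S513A at 4 hr, and that of *Acat2* without replicate 2 of WT at 8 hr.

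The 2 genotypes responded with largely the same members at 4 hr. There, 18 members rose and 2 fell in WT (22.6% and 18.7% of all genes) and 18 rose and 2 fell in S513A (23.1% and 20.2%), of which 17 rises and both falls were shared. At 8 hr, 17 rose and 2 fell in WT (19.4% and 14.9% of all genes) and 18 rose and 3 fell in S513A (20.9% and 19%), of which 13 rises and 2 falls were shared. The rises called in WT alone at 8 hr were *Mvk*, *Pmvk*, *Msmo1* and *Sc5d*, and those in S513A alone *Hmgcs1*, *Srebf2*, *Acly*, *Acaca* and *Fasn*, with a fall of *Ebp* called in S513A alone. The difference itself, a genotype by LPS interaction, was called for 0 of 32 members and 0% of genes at 4 hr and at 8 hr. At an unadjusted p under 0.05 it counted 1 member at 4 hr, *Ch25h* (1.21% of genes), and 7 at 8 hr (20.2% of genes). The value of *Ch25h* turns on resting libraries with 0 or 2 reads, so it does not show a difference in response. Without *Ch25h* the counts were 0 of 31 at 4 hr and 6 of 31 at 8 hr. With voom weights, limma called 0 at either time.

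The smallest p-values for the interaction at 8 hr were those of 3 enzymes, which are named after their values were seen. *Ebp*, the sterol isomerase, stood at 5.34 and 5.33 in WT and 5.90 and 5.76 in S513A at 0 hr, and at 5.62 and 5.53 in WT and 5.17 and 5.22 in S513A at 8 hr. The S513A libraries were thus the higher at rest and the lower at 8 hr, and the interaction was -0.87 ± 0.18 SE (adjusted p = 0.193). *Pmvk*, the phosphomevalonate kinase, stood at 4.58 and 4.72 in WT and 4.65 and 4.60 in S513A at 0 hr, and at 5.71 and 5.83 in WT and 4.64 and 5.13 in S513A at 8 hr. Its interaction was -0.86 ± 0.28 SE (adjusted p = 0.194), and that of *Mvk* -0.65 ± 0.22 SE (adjusted p = 0.197). Without S513A 8 hr replicate 2, *Ebp* (-0.89, adjusted p = 0.0403) and *Pmvk* (-1.11, adjusted p = 0.0451) were called lower, where 5.26% of all genes were. That is 2 of 32 members, near the share of all genes, and the lone library left in that group is assumed to vary like those of the other groups.

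Between the genotypes themselves, most members had lower fitted values in S513A and none was called. At 0, 4 and 8 hr and in the mean of the 3 times, 0 of 32 members were called, where the share of all genes was 0.0337%, 0.0168%, 0.0337% and 0.0673%, and voom weights also called 0 in each. At an unadjusted p under 0.05 the counts were 7 members at 0 hr (6 without *Ch25h*, 7.98% of genes), 8 at 4 hr (7.01% of genes), 11 at 8 hr, all lower in S513A (8.25% of genes), and 15 in the mean of the 3 times, all lower in S513A (3.54% of genes). Of the 11 at 8 hr, 10 were sterol enzymes. At that time 17 of the 18 sterol enzymes had fitted differences below 0 (median -0.31), as did 5807 of 11885 genes tested. For 13 of the 18 both S513A libraries lay below both WT libraries, as for 3061 of 11885 genes. In the mean, 29 of 32 fitted differences were below 0. The median was -0.16 over the members and -0.48 over the 6 fatty acid genes, against 0.01 over all genes tested. Both S513A libraries lay below both WT libraries at each of the 3 times for 4 members, *Acat2*, *Insig1*, *Elovl6* and *Scd1*, where 0.597% of genes did so.

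The fatty acid genes held the largest of these mean differences, which are named after their values were seen. *Scd1* had a log2 CPM of 3.75 and 3.21 in WT and 2.63 and 2.54 in S513A at 0 hr, 3.32 and 3.56 in WT and 2.95 and 2.12 in S513A at 4 hr, and 4.54 and 4.31 in WT and 4.15 and 3.39 in S513A at 8 hr. It was the lower in S513A at every time, by -0.82 ± 0.18 SE in the mean (95% interval -1.21 to -0.43, adjusted p = 0.280). *Scd2* stood at 8.30 and 8.08 in WT and 7.62 and 7.53 in S513A at 0 hr, 7.88 and 8.21 in WT and 7.56 and 7.02 in S513A at 4 hr, and 8.48 and 8.25 in WT and 8.32 and 7.79 in S513A at 8 hr. The groups were apart at 0 and 4 hr and overlapped at 8 hr, with a mean difference of -0.56 ± 0.12 SE (adjusted p = 0.285). *Fasn* stood at 6.59 and 6.37 in WT and 5.71 and 5.64 in S513A at 0 hr, 6.55 and 7.48 in WT and 6.50 and 5.86 in S513A at 4 hr, and 7.01 and 6.61 in WT and 7.22 and 6.44 in S513A at 8 hr. It too was apart at 0 and 4 hr only, with a mean difference of -0.54 ± 0.19 SE (adjusted p = 0.635). *Elovl6* differed by -0.42 ± 0.11 SE (adjusted p = 0.436). Outside this group, *Acat2* differed by -0.38 ± 0.07 SE (adjusted p = 0.233) and *Insig1* by -0.17 ± 0.06 SE (adjusted p = 0.590).

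The component that separated replicates also differed between the genotypes at rest. At 0 hr its scores were 0.40 and 0.19 in the WT libraries and -0.31 and -0.28 in the S513A libraries, and the largest differences between replicates among the members were those of *Fasn* in WT at 4 hr (0.93) and in S513A at 8 hr (0.78) and of *Scd1* in S513A at 4 hr (0.83). Across the 31 members, the difference between the 2 replicates correlated with log2 exon length by r = -0.18, 0.70 and -0.24 in WT and 0.09, -0.49 and -0.57 in S513A at 0, 4 and 8 hr, as a description over genes that share their libraries. With the component's score as a term, *Acat2* (-0.40), *Pmvk* (-0.38), *Fasn* (-0.38), *Scd1* (-0.70) and *Scd2* (-0.47) were called lower in S513A in the mean of the 3 times (limma, adjusted p = 0.000426 to 0.00661), where 0.379% of all genes were called lower. The score was taken from these same libraries, so those p-values are not independent of it, and the component's part in the genotype differences was not tested otherwise. In a fit of the 0 hr libraries alone, *Fasn*, *Scd1* and *Scd2* were called lower and *Ebp* higher in S513A (limma, adjusted p = 0.0403 to 0.0457), where 5.83% of genes were called.

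**Figure D4:**
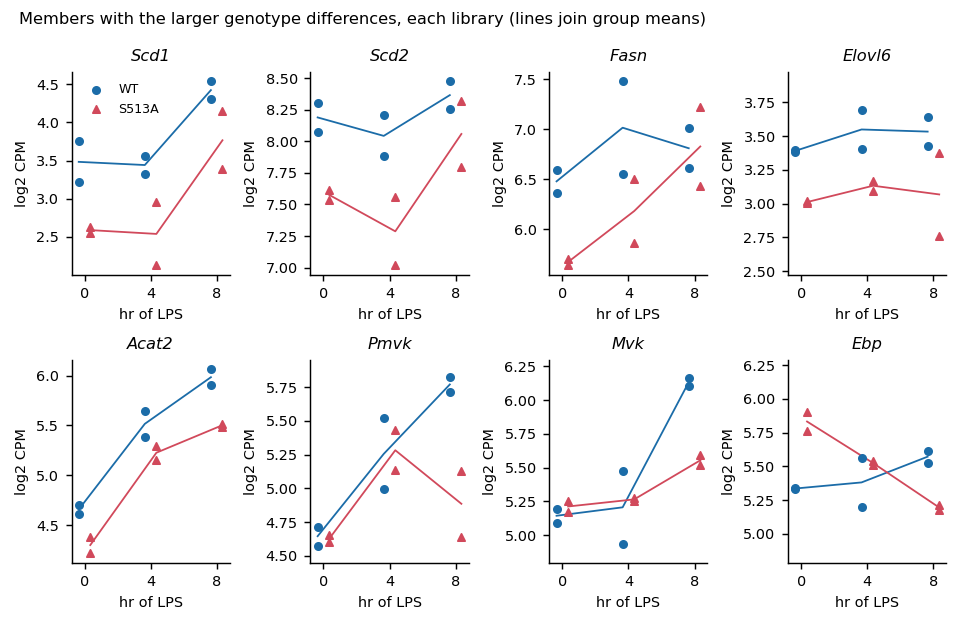
Log2 CPM of 8 members in every library against hr of LPS (points, WT circles and S513A triangles, 2 libraries each, lines join the means). *Scd1*, *Elovl6* and *Acat2* are lower in S513A at every time, *Scd2* and *Fasn* overlap at 8 hr, and *Pmvk*, *Mvk* and *Ebp* part at 8 hr.

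Of 22 further genes of sterol and fatty acid metabolism, listed by function, 10 rose and 7 fell at 4 hr (29.1% and 26.7% of all genes tested), 8 rose and 4 fell at 8 hr (24.5% and 21.6%), and 9 rose and 2 fell from 4 to 8 hr (12.8% each way). Those called with a log2 fold change of at least 1 in either direction are named. *Lpin1*, a phosphatidate phosphatase of triglyceride synthesis, had a log2 CPM of 5.37 and 5.20 in WT and 5.11 and 5.05 in S513A at 0 hr, 0.92 and 1.44 in WT and 0.18 and 0.42 in S513A at 4 hr, and 2.64 and 2.55 in WT and 2.96 and 2.30 in S513A at 8 hr. It was 21.8-fold lower at 4 hr (log2 fold change -4.44 ± 0.17 SE, adjusted p = 4.07e-09) and 5.93-fold lower at 8 hr. *Nceh1*, which hydrolyses the cholesterol esters that SOAT1 makes, fell 5.84-fold at 4 hr (log2 fold change -2.55 ± 0.07 SE, adjusted p = 3.13e-10) and stood 2.83-fold lower at 8 hr, the same course as *Soat1*. *Fads1*, a desaturase, and *Elovl5*, an elongase, of polyunsaturated fatty acids fell at 4 hr (log2 fold change -1.10 and -1.13) and rose again by 8 hr (0.86 and 0.39).

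*Acss2*, the acetyl-CoA synthetase of the cytosol and nucleus, stood at 4.77 and 4.37 in WT and 4.65 and 5.06 in S513A at 0 hr and at 6.87 and 6.82 in WT and 6.78 and 6.81 in S513A at 8 hr. It rose 4.31-fold (log2 2.11 ± 0.11 SE, adjusted p = 9.42e-08), most of it after 4 hr (log2 1.65 from 4 to 8 hr). *Fads2*, a desaturase, rose 5.29-fold by 8 hr (log2 2.40 ± 0.19 SE, adjusted p = 2.10e-06), and *Me1*, the malic enzyme that supplies NADPH, 2.47-fold (adjusted p = 5.76e-05). *Fads2* was also the lower in S513A at every time, with 2.47 and 1.99 in WT against 1.10 and 1.04 in S513A at 0 hr, 3.07 and 2.70 against 2.28 and 1.68 at 4 hr, and 4.57 and 4.30 against 3.98 and 3.37 at 8 hr. The libraries of the genotypes did not overlap at any time, with S513A the lower, as in 0.597% of all genes tested. The mean difference was -0.94 ± 0.16 SE and was not called (limma, adjusted p = 0.102). With the replicate block it was among 3 of 11885 genes called lower in S513A (limma, adjusted p = 0.0159). A pairing of the libraries by replicate number is not stated and was not shown, so that call is not taken as support for a difference.

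**Figure D5:**
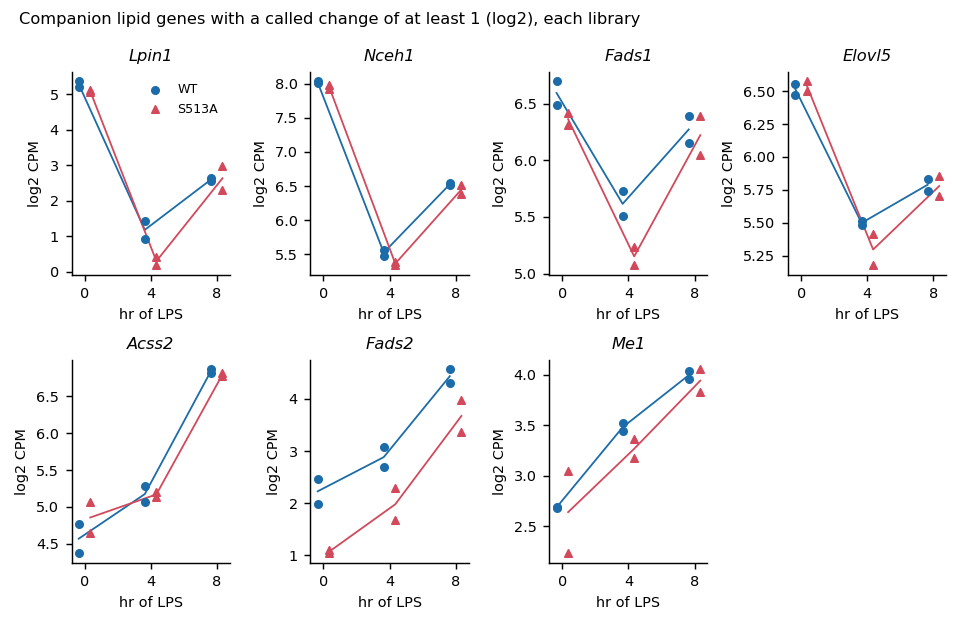
Log2 CPM of 7 further lipid genes called with a change of at least 1 on the log2 scale, in every library against hr of LPS (points, WT circles and S513A triangles, 2 libraries each, lines join the means). *Lpin1*, *Nceh1*, *Fads1* and *Elovl5* are lowest at 4 hr, *Acss2*, *Fads2* and *Me1* are highest at 8 hr, and *Fads2* is lower in S513A at every time.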

How the data were processed

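PolyA RNA of 12 libraries (NEBNext Ultra, NextSeq 500) was aligned to mm10 with HISAT2 (as unstranded) and counted with featureCounts 1.6.3, per the labels, the study's methods and the submitters' processing notes. The annotation is not given in the sources used here. The authors deposited 1 table of log2 values, log2 CPM after scaling of library sizes. Its steps showed whole reads with 0.5 added before the logarithm (largest departure 0.00144 reads), from which totals were read. Libraries held 9525979 to 12439960 reads.

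The 11885 genes with 1 CPM in at least 2 libraries were fitted in R 4.3.3 with limma 3.58.1 (group means, moderated variance with a trend, Benjamini-Hochberg). LPS contrasts average the genotypes and S513A contrasts were taken at each time and over the 3 times. The fit was tested on simulated data. Genes given in every library are the SREBP control genes, *Ch25h* and, per comparison, the 5 called members with the largest change whose libraries do not overlap. Other genes were named after their values were seen. Members and lists were chosen with earlier results of these data known. Alternatives covered filters, a pseudocount of 1 CPM, scaling, replicate blocks, priors, voom weights, fewer groups, a replicate component and leaving out each library. Same-number replicates deviated together in some groups and oppositely in others (r = -0.75 to 0.76). No pairing by number was therefore shown. These correlations cannot settle whether same-number libraries shared a mouse, which the sources do not state. Positions are from GENCODE M21 and promoters from RefSeq (GRCm38.p6).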

Additional observations from a re-analysis of the deposited data

How the results depend on the processing

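Member counts past the threshold stayed within 1.5 times of those reported under every alternative run other than the following. Quantile normalization gave 4 members lower at 4 hr, 15 higher at 8 hr and 3 lower from 4 to 8 hr, and turned *Sqle* at 4 hr to -0.045 (not called). A fit of only the groups compared gave 4 members lower from 4 to 8 hr and, in S513A at 0 hr, 3 lower and 1 higher. With the replicate component as a term, 2 members were called lower in S513A after 8 hr and 5 over the 3 times, and *Fasn* at 8 hr turned to -0.62. The cause of these shifts was not tested. Leaving out 1 library gave 3 to 7 members lower from 4 to 8 hr (3 without either WT 8 hr library or S513A 4 hr replicate 2, 4 without S513A 4 hr replicate 1 or S513A 8 hr replicate 2) and 0 to 2 lower in the interaction at 8 hr (2 without S513A 8 hr replicate 2, where 5.26% of all genes were called lower). With the replicate block, 19 members rose and 2 fell at 4 hr, 22 and 2 at 8 hr, and 10 and 5 from 4 to 8 hr, and 0 differed between the genotypes. The block ended the calls of *Stard4* at 8 hr and of *Cyp51* and *Insig1* from 4 to 8 hr. In its shallowest library *Ch25h* had 0 reads, *Scd1* 37 and *Elovl6* 62, so counting error weighs most on these 3.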
